A study of Mus musculus with 8 samples.

Results

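The genes described here encode the protein shell of plasma lipoproteins and the protein that loads them with lipid: Apoa1, Apoa2, Apoa4, Apoa5, Apob, Apoc1, Apoc2, Apoc3 and Apoe, with Mttp, in bulk mouse liver. They were chosen by name, and all 10 were found among the 27110 genes of the deposited table and among the 16420 genes with enough reads to test. RNA came from 4 LKO livers (replicates 3, 4, 12 and 13, all female) and 4 Fl/Fl livers (replicates 5, 7 and 9 female, replicate 10 male), taken at week 7 with the treatment label NT. The cell type label reads hepatocytes and cholangiocytes. LKO stands for a deletion of Pkd1l1, a polycystin-family gene, restricted to the liver. The floxed controls carry the genotype label Fl/Fl. The sources used here do not name the Cre driver. The libraries held 71491723 to 76622375 counted reads each.

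The liver secretes triglyceride as very low density lipoprotein (VLDL), whose backbone is apolipoprotein B, and the microsomal triglyceride transfer protein (Mttp) lipidates apolipoprotein B in the endoplasmic reticulum. Apolipoproteins A-I and A-II build high density lipoprotein (HDL). Apolipoprotein E and the small C apolipoproteins exchange between particles and set how fast they are hydrolysed and cleared. In the mouse, as in humans, several of these genes lie in compact clusters.

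None of the 10 genes passed an adjusted p of 0.05, although LKO livers held more Apoe RNA than each female Fl/Fl liver. Apoe averaged 15483 ± 1077 CPM (read counts scaled to a common library size; SD, n = 4) in LKO livers and 11031 ± 858.5 CPM (n = 3) in female Fl/Fl livers, a fitted log2 fold change of 0.49 ± 0.11 (standard error) with an adjusted p of 0.0547 in edgeR's quasi-likelihood test. Apoc4, the close neighbour of Apoe and Apoc1 that is not among the 10, did pass and rose 1.42-fold (adjusted p = 0.0421). Apob averaged 5551 ± 491.4 CPM in LKO livers and 6577 ± 561.1 CPM in female Fl/Fl livers (log2 -0.24 ± 0.11, adjusted p = 0.306). Fold changes are LKO over female Fl/Fl, since a sex term in the fit takes up the single male library, and adjusted p-values run over all genes tested. The male Fl/Fl liver held 15672 CPM of Apoe and 249.3 CPM of Apoc4. With no sex term the adjusted p in the same edgeR test was 0.609 for Apoe and 0.52 for Apoc4.

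Against the background of all genes, 0 of the 10 were called, where 1.41% of tested genes were called, 1.02% higher and 0.396% lower. The unadjusted p was below 0.05 in 5 of the 10, against 16.1% of all genes. Of these, 4 were higher in LKO (Apoa4, Apoa5, Apoc1 and Apoe), against 9.22% of all genes, and 1 was lower (Apob), against 6.86%. DESeq2 put 2 of them past an adjusted p of 0.05 (Apoe and Apoc1) and limma voom put 1 (Apoe). The groups did not overlap in 3 of the 10, against 15.1% of tested genes. All LKO values lay above all female Fl/Fl values in 3 of the 10 (Apoa5, Apoc1 and Apoe), against 8.85% of tested genes, and below them in 0, against 6.22%. The median log2 fold change of the 10 genes was 0.29, and 8 of the 10 were positive, while the median over all tested genes was -0.0032 with 49.5% positive.

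**Figure D1:**
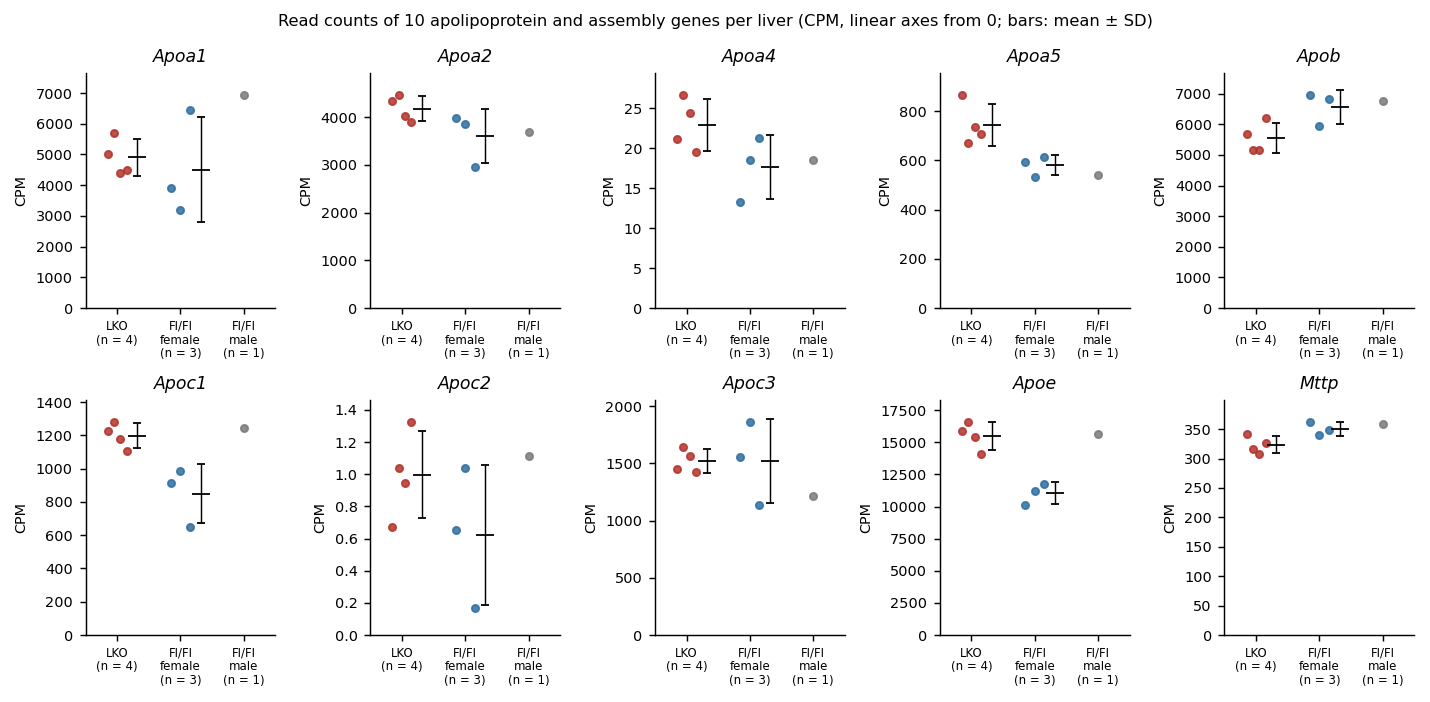
CPM of each of the 10 genes in every liver on linear axes that start at 0, with LKO livers in red, female Fl/Fl livers in blue and the male Fl/Fl liver in grey; points are single livers and bars are mean ± SD. LKO points lie wholly above the female Fl/Fl points for Apoa5, Apoc1 and Apoe, and the male liver lies within the LKO range for Apoc1, Apoc2 and Apoe.

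Promoter windows came from RefSeq on build GRCm38.p6, the assembly family of mm10, and 8 of the 10 genes had a window. Each reaches from 250 bases before to 50 after a RefSeq start, from which positions are counted. For Apob and Apoc4 this start differs from the gene start in the deposited table. Apoe had 3 windows and Apoa5 had 2, and the window nearest the deposited gene start was used. The windows of Apoe and Apoc4 are shown because the fold changes of these neighbours were both positive, that of Apoe short of the threshold. The window of Apoa5 is shown because it was the gene of the other cluster whose groups did not overlap. That of Apob is shown because its fold change was negative, also short of the threshold. Capitals mark TATAAA (the TATA box), CACGTG (the E-box, bound by clock and USF factors) and AGGTCA (a core site of nuclear receptors), searched on both strands together with TGTTTAC (forkhead factors) and CAAAGTCCA (HNF4).
Apoe promoter, chr7:19699139-19699438, minus strand: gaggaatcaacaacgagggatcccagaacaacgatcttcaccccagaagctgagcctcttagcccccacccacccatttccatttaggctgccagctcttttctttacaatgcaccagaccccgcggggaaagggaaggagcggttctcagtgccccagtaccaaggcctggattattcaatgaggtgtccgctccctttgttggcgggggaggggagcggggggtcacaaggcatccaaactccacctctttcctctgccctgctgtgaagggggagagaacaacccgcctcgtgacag
Apoc4 promoter, chr7:19681411-19681710, minus strand: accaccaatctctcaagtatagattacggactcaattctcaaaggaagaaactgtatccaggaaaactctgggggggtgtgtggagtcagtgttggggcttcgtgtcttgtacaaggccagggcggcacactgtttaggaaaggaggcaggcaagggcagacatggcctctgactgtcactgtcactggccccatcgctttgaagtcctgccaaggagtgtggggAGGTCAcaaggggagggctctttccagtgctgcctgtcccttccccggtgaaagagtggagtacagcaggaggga
Apoa5 promoter, chr9:46268383-46268682, plus strand: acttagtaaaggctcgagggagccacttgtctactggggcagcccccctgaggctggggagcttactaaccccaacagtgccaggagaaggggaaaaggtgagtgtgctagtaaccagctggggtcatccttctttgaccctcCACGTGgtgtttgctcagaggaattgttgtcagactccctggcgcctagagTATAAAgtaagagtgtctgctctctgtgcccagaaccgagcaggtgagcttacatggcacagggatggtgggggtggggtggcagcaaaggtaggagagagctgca
Apob promoter, chr12:7977427-7977726, plus strand: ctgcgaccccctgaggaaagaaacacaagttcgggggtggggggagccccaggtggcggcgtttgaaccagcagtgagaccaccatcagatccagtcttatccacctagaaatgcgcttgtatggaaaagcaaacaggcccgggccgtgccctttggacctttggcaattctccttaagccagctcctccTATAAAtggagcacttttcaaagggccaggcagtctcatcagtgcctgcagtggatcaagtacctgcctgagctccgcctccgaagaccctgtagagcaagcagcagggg

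The Apoe window shown held none of the 5 motifs, and the other windows of Apoe and Apoa5 are not described here. The Apoc4 window held AGGTCA at position -25 from the RefSeq start, on the gene's own strand. The Apoa5 window held CACGTG at -107 and TATAAA at -56, and the Apob window held TATAAA at -60. No marked motifs overlapped each other. Among 32817 promoter windows of this length, 16.3% held AGGTCA, 7.15% CACGTG, 13.6% TATAAA, 3.65% TGTTTAC and 0.475% CAAAGTCCA. A match of letters describes the window and does not show binding.

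Apoe encodes the ligand through which remnant particles are taken up by the liver. It lies on chromosome 7 (19696109 to 19699188, minus strand, mm10) at the head of a cluster with Apoc1, Apoc4 and Apoc2. Apoe stood at 15863, 16619, 15393 and 14056 CPM in LKO 3, 4, 12 and 13, against 10100, 11204 and 11790 CPM in female Fl/Fl 5, 7 and 9 and 15672 CPM in the male Fl/Fl liver. The LKO and female Fl/Fl livers did not overlap, and the male Fl/Fl liver lay within the LKO range. The fitted difference was 1.40-fold (unadjusted p = 0.000946). When the male liver counted as a plain Fl/Fl library, with no sex term, the log2 difference of Apoe was 0.34 (adjusted p = 0.609), and the authors' deposited table gives 0.341 (adjusted p = 0.456). Without Fl/Fl 9 it was 0.54 and past the threshold (adjusted p = 0.0151).

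Apoc1, a small inhibitor of lipoprotein lipase and of remnant uptake, lies 3.45 kb from Apoe. It stood at 1224, 1283, 1176 and 1108 CPM in LKO 3, 4, 12 and 13, against 914.0, 987.7 and 648.8 CPM in female Fl/Fl 5, 7 and 9 and 1246 CPM in the male Fl/Fl liver. Each LKO liver lay above each female Fl/Fl liver, the lowest was Fl/Fl 9, and the male liver again lay within the LKO range. The log2 fold change was 0.49 ± 0.14 (adjusted p = 0.113). It was 0.33 with Fl/Fl 9 left out and 0.88 with Fl/Fl 5 and 7 both left out, so its size rests on which of these 3 controls are used.

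Apoc4, a minor C apolipoprotein in mouse plasma, was the gene of this cluster past the threshold. It stood at 258.4, 283.0, 265.4 and 250.5 CPM in LKO 3, 4, 12 and 13, against 170.6, 214.3 and 172.4 CPM in female Fl/Fl 5, 7 and 9 and 249.3 CPM in the male Fl/Fl liver. The LKO livers all lay above the female Fl/Fl livers, and the male liver lay just under the lowest LKO liver. The log2 fold change was 0.51 ± 0.10. The call was lost in 10 of 18 other settings, over which the adjusted p ran from 0.00144 to 0.520. Among these, it was lost when any 1 LKO library or Fl/Fl 5 was left out (adjusted p = 0.0643 to 0.244) and with no sex term (log2 0.39, adjusted p = 0.520).

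The ratio of Apoe to Apoc1 within a liver compares these neighbours without a scaling step. In CPM it was 12.96, 12.95, 13.09 and 12.69 in LKO 3, 4, 12 and 13, against 11.05, 11.34 and 18.17 in female Fl/Fl 5, 7 and 9 and 12.58 in the male Fl/Fl liver. The ratio was nearly constant among LKO livers (log2 SD 0.019), while among female Fl/Fl livers (log2 SD 0.404) Fl/Fl 9 stood above the others. Mean log2 ratios of Apoe to Apoc1 were 3.69 in LKO livers and 3.72 in female Fl/Fl livers, a difference smaller than the Fl/Fl spread. That closeness rests on Fl/Fl 9: with it left out the female Fl/Fl mean was 3.485, and every LKO ratio lay above the ratios of Fl/Fl 5 and 7.

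Apoc2 encodes the activator of lipoprotein lipase, and few reads were assigned to it. It held 51 to 101 reads in LKO livers, against 49, 81 and 13 reads in female Fl/Fl livers and 78 in the male one, while Apoc1, in the same cluster, held at least 49729. In the GENCODE M21 annotation, 79.5% of the 813 exon bases of Apoc2 also belong to Gm44805, a gene on the same strand that runs across Apoc2 and Apoc4. Gm44805 is not a row of the table analysed here, and the sources used here do not say how reads in shared exons were assigned. The log2 fold change of Apoc2 was 0.68 ± 0.50 (adjusted p = 0.554). It was 0.23 with Fl/Fl 9 left out, 1.27 with Fl/Fl 7 left out and 2.53 with Fl/Fl 5 and 7 both left out, so its size rests on single libraries. Of Apoc4, 4.69% of exon bases are shared in this way.

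Apoe is made by macrophages as well as by hepatocytes. Over 15 Kupffer cell and macrophage markers the summed level was 684.4 to 817.9 CPM in LKO livers, against 616.1 to 877.0 CPM in female Fl/Fl livers and 611.9 CPM in the male one, so the sums overlapped. None of the 15 passed the test, 8 of the fold changes were positive, and none of these markers was at 0. The sum is led by Slc40a1 (138.0 ± 28.74 CPM in LKO livers and 156.8 ± 26.75 CPM in female Fl/Fl livers). By an unadjusted p below 0.05, 2 of the markers were higher in LKO and 0 lower, against 9.22% and 6.86% of all genes. Cd163, a scavenger receptor of macrophages, was at 26.10 ± 3.79 CPM in LKO livers and 16.71 ± 3.28 CPM in female Fl/Fl livers, with no overlap (log2 0.64 ± 0.15, adjusted p = 0.0667), and at 25.91 CPM in the male one. C1qa, a complement subunit made by macrophages, was at 45.47 ± 5.73 CPM in LKO livers and 29.97 ± 9.09 CPM in female Fl/Fl livers (log2 0.60 ± 0.19, adjusted p = 0.173). Against the 8 positive fold changes, 7 of the 15 were negative. The lowest were those of Marco (log2 -0.56 ± 0.44), Lyz2 (log2 -0.39 ± 0.18) and Timd4 (log2 -0.32 ± 0.20). These markers, like Cd163 and C1qa, were picked out with values known. The part of any of them in the Apoe values was not tested. In bulk liver, fewer cells of a type and less RNA per cell cannot be told apart.

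Apob encodes the single structural protein of each VLDL particle, in one very long gene model on chromosome 12 (7977648 to 8016835, plus strand, 13934 bases of transcript model). It stood at 5678, 5167, 5166 and 6193 CPM in LKO 3, 4, 12 and 13, against 6972, 5935 and 6824 CPM in female Fl/Fl 5, 7 and 9 and 6772 CPM in the male Fl/Fl liver. LKO 3, 4 and 12 lay below every Fl/Fl liver, and LKO 13 lay above Fl/Fl 7, so the groups overlapped. The log2 fold change stayed negative in all 18 other settings, from -0.32 to -0.20, and passed the threshold in none of them (adjusted p = 0.249 to 0.657).

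Mttp, on chromosome 3 (138089854 to 138144968, minus strand), was the steadiest of the 10 genes. It stood at 342.0, 316.4, 308.2 and 326.5 CPM in LKO 3, 4, 12 and 13, against 363.0, 339.9 and 349.4 CPM in female Fl/Fl 5, 7 and 9 and 358.2 CPM in the male Fl/Fl liver. Its highest and lowest livers differed 1.18-fold, the narrowest range of the 10 genes. LKO 3 lay just above Fl/Fl 7, so the groups overlapped, and the log2 fold change was -0.12 ± 0.08 (adjusted p = 0.532). The gene Trmt10a shares 7.36% of the exon bases of Mttp on the other strand and held 2538 reads over all libraries. P4hb, which encodes the protein disulfide isomerase subunit of the transfer complex, was at 1407 ± 169.1 CPM in LKO livers and 1440 ± 116.8 CPM in female Fl/Fl livers (adjusted p = 0.921), and was named after its values were seen.

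The 2 particle ligands, Apoe and Apob, had fold changes of opposite sign. Their ratio, Apoe to Apob, in CPM was 2.79, 3.22, 2.98 and 2.27 in LKO 3, 4, 12 and 13, against 1.45, 1.89 and 1.73 in female Fl/Fl 5, 7 and 9 and 2.31 in the male Fl/Fl liver. The LKO values lay above the female Fl/Fl values, and the male liver lay within the LKO range. The pairs were chosen with values known, so each ratio is a description with no test. The ratio of Apob to Mttp was 16.60, 16.33, 16.76 and 18.97 in LKO livers, against 19.21, 17.46 and 19.53 in female Fl/Fl livers and 18.90 in the male one, and the groups overlapped.

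**Figure D2:**
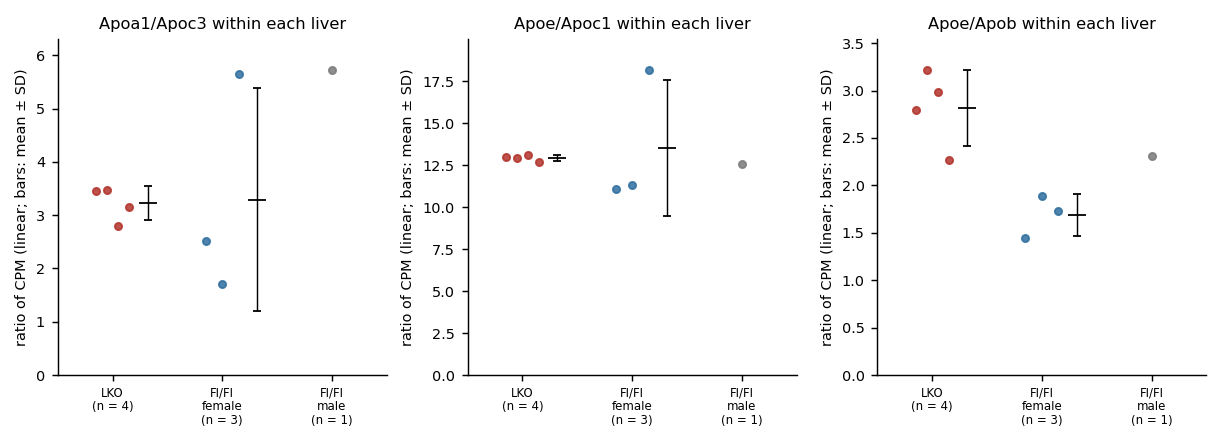
Ratio of the CPM of 2 genes within each liver, for Apoa1 over Apoc3, Apoe over Apoc1 and Apoe over Apob; points are single livers, bars are mean ± SD, and axes are linear from 0. LKO livers sit close together for Apoe over Apoc1 (12.69 to 13.09), and Fl/Fl 9 (5.66) and the male liver (5.72) stand above the rest for Apoa1 over Apoc3.

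The other cluster, on chromosome 9, holds Apoa1, Apoc3, Apoa4 and Apoa5 between positions 46228580 and 46271919. Apoa5, a liver protein that promotes triglyceride hydrolysis by lipoprotein lipase, stood at 867.2, 671.0, 734.2 and 708.0 CPM in LKO 3, 4, 12 and 13, against 594.8, 533.3 and 613.9 CPM in female Fl/Fl 5, 7 and 9 and 539.8 CPM in the male Fl/Fl liver. Here every LKO liver lay above every Fl/Fl liver, the male one included. The log2 fold change was 0.36 ± 0.11 (adjusted p = 0.139). It ranged from 0.27 to 0.41 over the 18 other settings and passed the threshold in none of them. With no sex term it was 0.39, and the authors' deposited table gives 0.381 (adjusted p = 0.127), so Apoa5 was the gene of the 10 with the lowest adjusted p in that table. Gm47544, on the other strand, shares 20.8% of the exon bases of Apoa5 and is not a row of the table analysed here.

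Apoa4, a lipid-binding protein made mainly in the intestine and at lower levels in liver, was the weakest of this cluster. It stood at 21.14, 26.73, 24.47 and 19.49 CPM in LKO 3, 4, 12 and 13, against 13.33, 18.53 and 21.25 CPM in female Fl/Fl 5, 7 and 9 and 18.58 CPM in the male Fl/Fl liver. LKO 3 and 13 lay below Fl/Fl 9, so the groups overlapped (log2 0.37 ± 0.16, adjusted p = 0.300). The log2 fold change was 0.21 with Fl/Fl 5 left out and 0.10 with Fl/Fl 5 and 7 both left out. On the other strand, Gm47528 shares 34.9% of the exon bases of Apoa4 and Gm10680 another 34.8%, and without a stated strand setting their reads cannot be told apart. Of 8 intestinal markers, the sum was 29.13 to 39.50 CPM in LKO livers, against 32.52 to 37.56 CPM in female Fl/Fl livers, nearly all of it Fabp2.

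Apoa1, the main protein of HDL, and Apoc3, an inhibitor of lipoprotein lipase and of remnant clearance, lie 2.47 kb apart on opposite strands. Apoa1 stood at 5025, 5712, 4387 and 4488 CPM in LKO 3, 4, 12 and 13, against 3893, 3189 and 6433 CPM in female Fl/Fl 5, 7 and 9 and 6949 CPM in the male Fl/Fl liver. The LKO livers lay between the low Fl/Fl 5 and 7 and the high Fl/Fl 9 and 10. Apoc3 stood at 1452, 1643, 1568 and 1422 CPM in LKO livers, against 1553, 1866 and 1137 CPM in female Fl/Fl livers and 1214 CPM in the male Fl/Fl liver. There Fl/Fl 9 and 10 were the lowest and Fl/Fl 7 the highest, the reverse of Apoa1.

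The ratio of Apoa1 to Apoc3 in CPM was 3.46, 3.48, 2.80 and 3.16 in LKO 3, 4, 12 and 13, against 2.51, 1.71 and 5.66 in female Fl/Fl 5, 7 and 9 and 5.72 in the male Fl/Fl liver. Female Fl/Fl livers spanned 1.73 on the log2 scale and LKO livers 0.31. Mean log2 ratios were 1.68 ± 0.15 in LKO livers and 1.53 ± 0.88 in female Fl/Fl livers, within the Fl/Fl spread. Neither gene passed the genotype test, with log2 fold changes of 0.12 ± 0.22 for Apoa1 (adjusted p = 0.843) and 0.0021 ± 0.15 for Apoc3 (adjusted p = 0.995). Their signs changed with the libraries used: Apoa1 was -0.08 with Fl/Fl 7 left out and 0.47 with Fl/Fl 9 left out, and Apoc3 was -0.17 with Fl/Fl 9 left out, 0.17 with Fl/Fl 7 left out and 0.41 when Fl/Fl 5 and 7 were both left out.

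Apoa2 encodes the other main HDL protein and lies alone on chromosome 1 (171225054 to 171226379, plus strand). It stood at 4328, 4470, 4017 and 3899 CPM in LKO 3, 4, 12 and 13, against 3990, 3854 and 2948 CPM in female Fl/Fl 5, 7 and 9 and 3694 CPM in the male Fl/Fl liver. LKO 13 lay below Fl/Fl 5, so the groups overlapped, and the log2 fold change was 0.22 ± 0.12 (adjusted p = 0.418). Without Fl/Fl 9 it was 0.09.

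**Figure D3:**
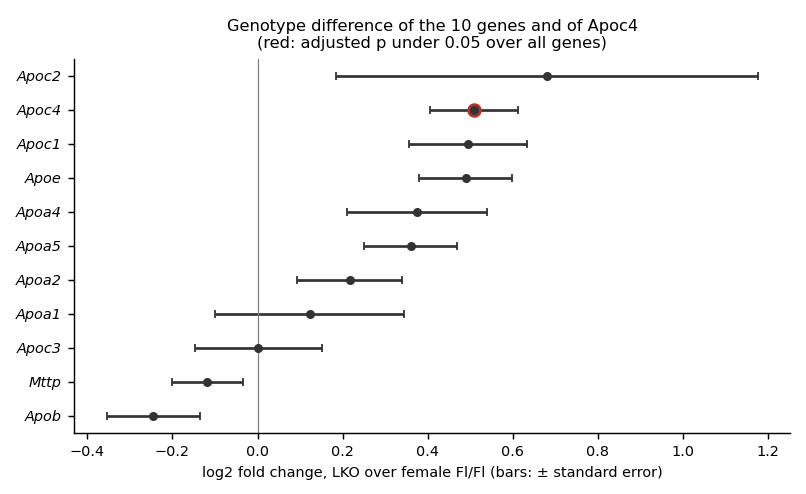
Log2 fold change of LKO over female Fl/Fl for the 10 genes and Apoc4 from edgeR, with bars of ± 1 standard error. Apoc4 (red, 0.51) was the gene past an adjusted p of 0.05, Apoe (0.49) stood at 0.0547, and Apob (-0.24) and Mttp (-0.12) were the genes below 0.

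Fl/Fl 9 stood lowest of the 8 livers in Apoa2, Apoc1, Apoc2 and Apoc3, whose gene models of 537, 744, 813 and 1014 bases are the shortest of the 10. Against the mean of the other female livers the log2 difference of Fl/Fl 9 was -0.47 in Apoa2, -0.77 in Apoc1, -2.435 in Apoc2 and -0.47 in Apoc3, and 0.56 in Apoa1 (1236 bases). Across 176 protein-coding genes with models under 1100 bases and a mean of at least 10 CPM, the median log2 difference from the other female livers was 0.14, 0.18, 0.13 and 0.04 in LKO 3, 4, 12 and 13, against -0.20, -0.07 and -0.20 in female Fl/Fl 5, 7 and 9 and 0.305 in the male Fl/Fl liver. In 7448 longer genes it was between -0.024 and 0.063 in every liver. The median of the short gene models was thus higher in each LKO liver than in each female Fl/Fl liver. The length limit was set after the values were seen, and the part of this in the results for the short genes was not tested. The models of Apoe, Apoc4 and Apoa5 have 2138, 2537 and 2522 bases. Model lengths such as those of Apoc4 and Apoa5 count all annotated exon bases of a gene, so single transcripts can be shorter. The part of transcript length in the values of these genes was not tested either.

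The livers also differed in clock gene levels. Arntl, a core activator of the clock, was at 30.28, 26.59, 5.32 and 8.31 CPM in LKO 3, 4, 12 and 13, against 39.71, 29.50 and 8.52 CPM in female Fl/Fl 5, 7 and 9 and 3.98 CPM in the male Fl/Fl liver. Dbp, a clock output gene, was at 0.606, 1.64, 54.37 and 42.22 CPM in LKO livers, against 2.46, 3.50 and 26.85 CPM in female Fl/Fl livers and 46.06 CPM in the male one. Both genotypes held livers with much Arntl and livers with much Dbp. Arntl was high in Fl/Fl 5 and 7 and low in Fl/Fl 9, so leaving out Fl/Fl 9 left only female Fl/Fl livers with high Arntl. The part of these levels in Apoa1 or in any fold change was not tested.

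Per length, the levels spanned several orders of magnitude. In FPKM (the deposited values scaled by gene length and library size), Apoa2 was highest, at 8073 ± 517.1 in LKO livers and 6955 ± 1068 in female Fl/Fl livers. Apoe followed at 7512 ± 517.0 FPKM in LKO livers and 5360 ± 432.0 FPKM in female Fl/Fl livers. Apoa1 was at 4116 ± 513.3 FPKM in LKO livers and 3790 ± 1455 FPKM in female Fl/Fl livers. The ranges of Apoa2 and Apoe overlapped in both genotypes, and those of Apoe and Apoa1 overlapped in female Fl/Fl livers only, where Apoa1 was 5435 FPKM in Fl/Fl 9. These 3 genes ranked between 4 and 17 among all 27110 genes in each library.

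Apoc1 averaged 1670 ± 102.9 FPKM in LKO livers and 1186 ± 243.7 FPKM in female Fl/Fl livers. Apoc3 averaged 1556 ± 101.8 FPKM in LKO livers and 1555 ± 367.6 FPKM in female Fl/Fl livers. Apoc1 ranked above Apoc3 in the LKO mean and below it in the female Fl/Fl mean, the one change in the order, but their ranges overlapped in both genotypes. Apob averaged 413.4 ± 37.79 FPKM in LKO livers and 490.4 ± 43.30 FPKM in female Fl/Fl livers, and Apoa5 306.5 ± 35.48 FPKM in LKO livers and 239.2 ± 18.36 FPKM in female Fl/Fl livers. Mttp followed at 54.05 ± 2.60 FPKM in LKO livers and 58.71 ± 2.01 FPKM in female Fl/Fl livers. Apoa4 was at 13.12 ± 1.83 FPKM in LKO livers and 10.14 ± 2.33 FPKM in female Fl/Fl livers. From Apob downward each gene's range lay apart from that of the next gene in both genotypes. Apoc2, with the shared exons described above, was listed last at 1.27 ± 0.35 FPKM in LKO livers and 0.791 ± 0.553 FPKM in female Fl/Fl livers.

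**Figure D4:**
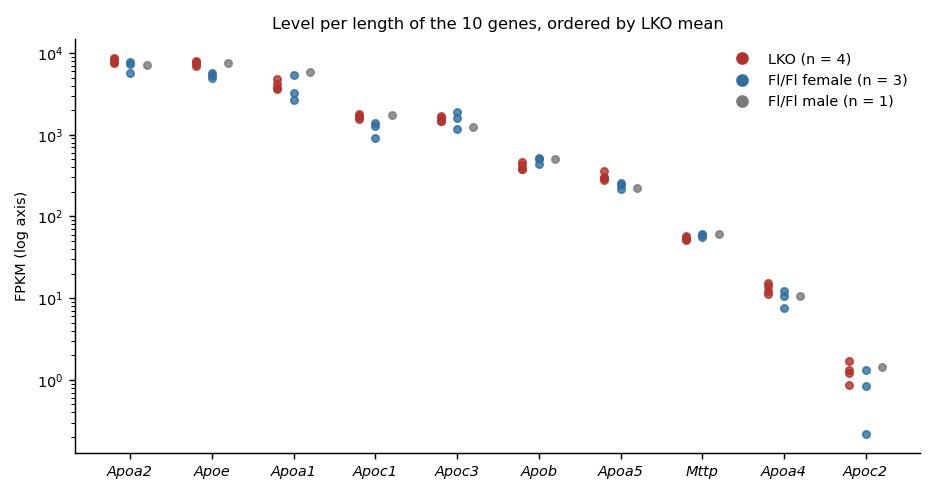
Deposited FPKM of the 10 genes in every liver on a log axis, ordered by the LKO mean; LKO livers are red, female Fl/Fl livers blue and the male Fl/Fl liver grey. Levels run from 8635 FPKM (Apoa2 in LKO 4) to 0.218 FPKM (Apoc2 in Fl/Fl 9), and 8 of 10 genes held the same rank in both female genotypes.

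Together the 10 genes took 3.49, 3.47, 3.27 and 3.23% of counted reads in LKO 3, 4, 12 and 13, against 2.85, 2.84 and 3.16% in female Fl/Fl 5, 7 and 9 and 3.58% in the male Fl/Fl liver. The LKO shares averaged 3.37 ± 0.13% and the female Fl/Fl shares 2.95 ± 0.18%, and they did not overlap. Apoe alone took 1.59, 1.61, 1.54 and 1.41% in LKO livers, against 1.01, 1.14 and 1.21% in female Fl/Fl livers and 1.54% in the male one. Apob took 0.569, 0.500, 0.516 and 0.620% in LKO livers, against 0.700, 0.604 and 0.701% in female Fl/Fl livers and 0.664% in the male one. No test was made of these sums.

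Apoa1 and Apoc2 had the widest ranges of the 10 over the 8 livers, 2.18-fold and 7.83-fold. By root mean square difference of centred log2 CPM over the 8 livers, the genes nearest to Apoa1 among 7721 with a mean of at least 10 CPM were Plec, which encodes the cytolinker plectin (0.141), Bloc1s4, a subunit of an organelle biogenesis complex (0.158), and Ncdn, neurochondrin (0.162). Plec stood at 87.95, 87.61, 84.45 and 84.87 CPM in LKO livers, against 62.20, 61.37 and 133.6 CPM in female Fl/Fl livers and 134.3 CPM in the male one, the same order of groups of livers as in Apoa1. Nearest to Apoc2 were Arrdc2 (0.426), Cyp2a5 (0.445) and Adam11 (0.464), at larger distances.

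Of 100 other genes of lipoprotein metabolism in 5 lists, 97 were tested, 4 rose (1.02% of all genes did) and 0 fell (0.396%). Among 9 tested apolipoproteins and related carriers outside the 10, Apoc4 rose and the other 8 stayed short of the threshold (median log2 0.04). Saa4, a constitutive HDL-bound serum amyloid, was at 278.8 ± 67.87 CPM in LKO livers and 162.6 ± 7.22 CPM in female Fl/Fl livers (log2 0.78 ± 0.17, adjusted p = 0.0648), and at 856.8 CPM in the male Fl/Fl liver. With no sex term its log2 difference was -0.27, and with LKO 3 left out it was past the threshold (log2 0.91, adjusted p = 0.0109).

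Among 26 genes of VLDL assembly and secretion, none passed (median log2 0.09). By an unadjusted p below 0.05, 4 were higher and 2 lower, against 9.22% and 6.86% of all genes. Sort1, a sorting receptor that binds apolipoprotein B, stood at 23.30, 19.25, 27.73 and 26.47 CPM in LKO 3, 4, 12 and 13, against 36.85, 30.75 and 44.59 CPM in female Fl/Fl 5, 7 and 9 and 46.50 CPM in the male Fl/Fl liver. Every LKO liver lay below every Fl/Fl liver (log2 -0.63 ± 0.15, adjusted p = 0.0741). Cideb, which adds lipid to nascent VLDL, stood at 29.74 ± 0.95 CPM in LKO livers and 23.51 ± 2.48 CPM in female Fl/Fl livers (adjusted p = 0.108), and was past the threshold with Fl/Fl 9 left out (adjusted p = 0.0258).

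None of 17 genes of HDL formation, plasma lipases and particle remodelling passed (median log2 0.13). By an unadjusted p below 0.05, 2 were higher and 1 lower, against 9.22% and 6.86% of all genes. Angptl4, a secreted inhibitor of lipoprotein lipase, was at 153.7 ± 31.58 CPM in LKO livers and 100.5 ± 10.26 CPM in female Fl/Fl livers (log2 0.61 ± 0.16, adjusted p = 0.0980), and at 217.8 CPM in the male one. Angptl4 was past the threshold with LKO 3 left out (adjusted p = 0.0188), and its log2 difference was 0.24 with no sex term. Lipg, endothelial lipase, was at 33.75 ± 3.98 CPM in LKO livers and 27.17 ± 2.58 CPM in female Fl/Fl livers (adjusted p = 0.201). Of 12 tested receptors and clearance genes none passed either (median log2 0.18). By an unadjusted p below 0.05, 3 of the 12 were higher and 0 lower, against the same shares of all genes. Cd36, a fatty acid and lipoprotein scavenger receptor, was at 72.53 ± 17.34 CPM in LKO livers and 50.28 ± 0.72 CPM in female Fl/Fl livers (adjusted p = 0.187), and LKO 3, at 48.82 CPM, lay below each female Fl/Fl liver. With LKO 3 left out Cd36 was past the threshold (adjusted p = 0.0179). Stab1, a scavenger receptor of sinusoidal endothelium, was at 79.38 ± 5.37 CPM in LKO livers and 62.50 ± 13.89 CPM in female Fl/Fl livers (log2 0.34 ± 0.13, adjusted p = 0.236). With Fl/Fl 9 left out Stab1 was past the threshold (log2 0.54, adjusted p = 0.0126), and with Fl/Fl 5 and 7 both left out its log2 difference was 0.0078.

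Among 33 transcriptional regulators of apolipoprotein genes, 3 rose (median log2 0.14 over the list), and the other 30 stayed short of the threshold. Of the 33, 10 were higher and 4 lower by an unadjusted p below 0.05, against 9.22% and 6.86% of all genes. Foxo1, an insulin-restrained factor that drives Mttp and Apoc3 transcription in mouse liver, was at 127.1, 115.6, 96.42 and 111.8 CPM in LKO 3, 4, 12 and 13, against 55.57, 60.99 and 62.82 CPM in female Fl/Fl 5, 7 and 9 and 85.30 CPM in the male Fl/Fl liver. It rose (log2 0.92 ± 0.11, adjusted p = 0.00859). Mttp and Apoc3 had the log2 fold changes of -0.12 and 0.0021 given above, and whether Foxo1 acted on them was not tested. Klf15, a glucocorticoid- and fasting-induced factor, rose 1.52-fold to 318.7 ± 22.0 CPM in LKO livers, against 209.9 ± 8.05 CPM in female Fl/Fl livers (adjusted p = 0.0161), and the male Fl/Fl liver held 325.2 CPM. Ppargc1b, a coactivator of lipogenic and mitochondrial genes, rose 2.08-fold to 11.57 ± 2.40 CPM in LKO livers, against 5.55 ± 1.32 CPM in female Fl/Fl livers (adjusted p = 0.0410). The call of Ppargc1b was lost in 10 of 18 other settings, that of Klf15 in 6 and that of Foxo1 in 3. Among single libraries, leaving out Fl/Fl 5 ended the call of Foxo1 (adjusted p = 0.0654). Leaving out LKO 4, LKO 13, Fl/Fl 5 or Fl/Fl 7 ended that of Klf15 (adjusted p = 0.0532 to 0.0998). Leaving out LKO 4, LKO 12, LKO 13, Fl/Fl 5 or Fl/Fl 7 ended that of Ppargc1b (adjusted p = 0.0918 to 0.127).

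**Figure D5:**
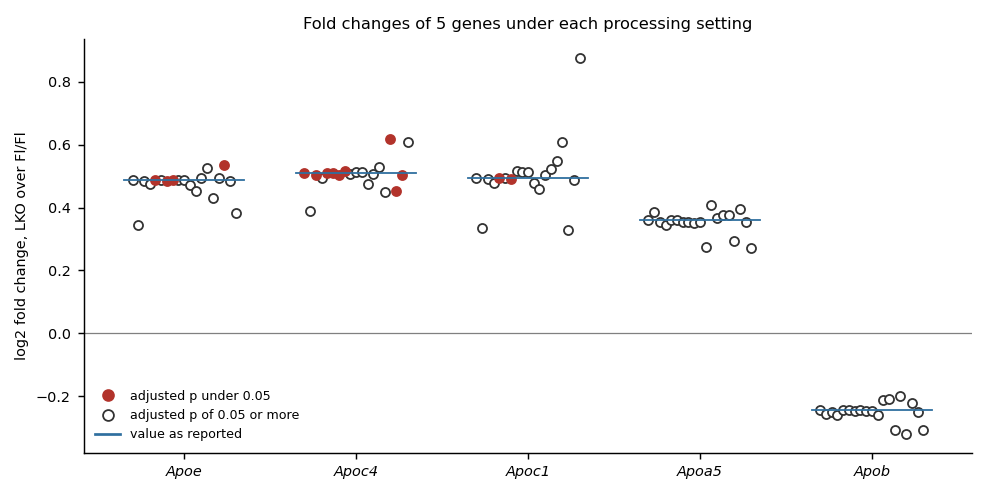
Log2 fold change of Apoe, Apoc4, Apoc1, Apoa5 and Apob as reported (blue line) and under each setting (points; filled red where the adjusted p was under 0.05). Each gene kept its sign in all settings; Apoe was past the threshold in 4 of 18 other settings, Apoc4 in 8, Apoc1 in 2, and Apoa5 and Apob in 0.

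Hepatocyte RNA dominated every library. Alb, the most abundant of 10 hepatocyte markers, stood at 96160 to 106232 CPM in LKO livers, against 102109 to 109283 CPM in female Fl/Fl livers and 55809 CPM in the male one. None of the 10 passed the test. By an unadjusted p below 0.05, 3 were higher and 0 lower, against 9.22% and 6.86% of all genes. The other cell types' markers were far lower: 10 cholangiocyte markers gave summed levels of 55.23 to 65.97 CPM in LKO livers and 66.32 to 80.58 CPM in female Fl/Fl livers. For 10 stellate cell and fibroblast markers the sums were 361.6 to 432.5 CPM in LKO livers and 413.2 to 445.9 CPM in female Fl/Fl livers. For 10 endothelial markers they were 467.5 to 520.2 CPM in LKO livers and 465.0 to 536.9 CPM in female Fl/Fl livers. Of the 10 stellate cell and fibroblast markers 0 passed, and 9 fold changes were negative. By an unadjusted p below 0.05, 1 of them was lower and 0 higher, against 6.86% and 9.22% of all genes. Of the 10 endothelial markers 0 passed, and 5 fold changes were negative. The cholangiocyte sums lay lower in each LKO liver than in each female Fl/Fl liver, by a narrow margin. They are led by Spp1 (38.21 ± 5.36 CPM in LKO livers and 44.89 ± 3.65 CPM in female Fl/Fl livers), whose groups overlapped. Of 9 tested cholangiocyte markers 0 passed, and 8 fold changes were negative. By an unadjusted p below 0.05, 2 of these were lower and 0 higher, against 6.86% and 9.22% of all genes. The part of these marker levels in the results was not tested. Pkd1l1 itself had 2 reads in all among LKO livers, 2 among female Fl/Fl livers and 0 in the male Fl/Fl liver, so it could not check the genotype labels at this depth.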

How the data were processed

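The authors deposited a table of read counts for each gene, a signal column per library (the counts over a size factor, not used) and FPKM, scaled by gene length and library. The deposited table also holds the authors' own log2 fold change, its p-value and adjusted p-value. The submitters' processing notes name fastp, STAR, HTSeq, featureCounts, DESeq, DESeq2, edgeR and mm10 without versions or roles; the annotation release and strand setting are not given in the sources used here.

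Counts were tested in R 4.3.3 with edgeR 4.0.16 (filterByExpr by genotype, TMM, robust quasi-likelihood fit, terms for sex and genotype, all 8 libraries), with Benjamini-Hochberg adjustment over 16420 genes and a threshold of 0.05. A standard error is the log2 fold change over the square root of F. CPM uses TMM-scaled library sizes, on which 3 reads are worth 0.0385 to 0.0428 CPM. For genes with many reads, precision at this depth is limited by the spread between livers rather than by read number. For Apoc2 and Pkd1l1, with few reads, read number limits it as well. Separate litters or days are not stated, so a p-value here reflects only how these samples vary, which may be technical. Read-based floors cover counting error only. No libraries were duplicates (lowest chi-square per degree of freedom 35.1). The fit was tested on simulated data.

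Alternatives used DESeq2 1.42.0, limma 3.58.1 (voom, and log2(FPKM + 1) or log2(FPKM + 0.1) with trend), other scalings and filters, no sex term, and each library left out. Dropping Fl/Fl 5 and 7 together was added after seeing the data. Named genes are the 10, up to 5 called genes of each list (with fewer than 2, those of smallest p up to 2), Pkd1l1, Arntl and Dbp, the most abundant marker of each cell type list and the 3 genes nearest in pattern to each of the 2 most variable genes. The genes, lists and motifs were chosen with earlier results of these data, or the sequences, known.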

Additional observations from a re-analysis of the deposited data

How the results depend on the processing

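No paired analysis was possible because the genotypes share no replicate numbers. Over all tested genes, 167 were higher and 65 lower in LKO. These counts were 1 and 0 with no sex term, 320 and 142 with no filter beyond 1 read, 492 and 270 with DESeq2, 105 and 35 on log2(FPKM + 1), 110 and 34 on log2(FPKM + 0.1), 14 and 4 at an adjusted p of 0.01, and 8 and 18 without Fl/Fl 5 and 7 together. Leaving out 1 library gave 2 to 476 higher and 2 to 251 lower. Of the 10 genes, 0 were past the threshold; 2 were higher with no filter and 2 with DESeq2, 1 with limma voom and, leaving out 1 library, 0 to 1, the 1 without Fl/Fl 9; 0 were lower in every setting. Of the 5 lists, 4 genes were higher and 0 lower; these counts were 0 and 0 with no sex term, 7 and 1 with no filter, 12 and 5 with DESeq2, 2 higher on either FPKM scale, 1 higher at an adjusted p of 0.01, 0 and 1 without Fl/Fl 5 and 7 together, and 0 to 12 and 0 to 3 leaving out 1 library. The cause was not tested.

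Apoa1 changed sign with no sex term (-0.061), when Fl/Fl 7 was dropped (-0.082) and when Fl/Fl 5 and 7 both were (-0.40); leaving out 1 library it ranged from -0.082 to 0.47. Apoc3 did with DESeq2 size factors in edgeR (-0.0014), upper quartile scaling (-0.013), DESeq2 (-0.0013), and without LKO 4 (-0.036), LKO 12 (-0.012), Fl/Fl 9 (-0.17) or Fl/Fl 10 (-0.0028); leaving out 1 library it ranged from -0.17 to 0.17. Saa4 did with no sex term (-0.27). The other 8 of the 10 genes kept their sign in 18 settings. The share of reads in the 10 genes was 3.54% in LKO and 3.14% in female Fl/Fl livers when reads of the mitochondrial genome were left out. Leaving out 1 library at a time, the shares averaged 3.32 to 3.41% in LKO and 2.85 to 3.004% in female Fl/Fl livers.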

Other observations

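The regulators and enzymes of hepatic lipid export described here were chosen after their values were seen, and include genes that were higher and genes that were lower in LKO livers. None of them passed the test. Lpin1, a phosphatidate phosphatase and coactivator, stood at 746.5, 1177, 798.7 and 1054 CPM in LKO 3, 4, 12 and 13, against 272.5, 271.6 and 609.8 CPM in female Fl/Fl 5, 7 and 9 and 1076 CPM in the male Fl/Fl liver (log2 1.30 ± 0.35, adjusted p = 0.144). Its LKO livers all lay above its female Fl/Fl livers, with Fl/Fl 9 and the male liver above Fl/Fl 5 and 7. Hnf4a, the nuclear receptor that drives many hepatic apolipoprotein genes, stood at 847.3, 883.0, 713.9 and 867.8 CPM in LKO livers, against 566.1, 555.8 and 665.3 CPM in female Fl/Fl livers and 951.6 CPM in the male one (log2 0.47 ± 0.11, adjusted p = 0.0646). Esrra, a partner of the coactivator family of Ppargc1b, was at 23.04 ± 1.08 CPM in LKO livers and 17.22 ± 1.20 CPM in female Fl/Fl livers (adjusted p = 0.0521).

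Dgat2, an enzyme of triglyceride synthesis, was at 736.4 ± 34.93 CPM in LKO livers and 613.5 ± 31.59 CPM in female Fl/Fl livers, with no overlap (log2 0.26 ± 0.09, adjusted p = 0.180). Apobec1, which edits Apob RNA, was at 20.12 ± 1.03 CPM in LKO livers and 23.25 ± 3.60 CPM in female Fl/Fl livers, and at 42.15 CPM in the male one (adjusted p = 0.392).

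In other genes of the same lists, all LKO values lay below all female Fl/Fl values. Onecut1, a hepatic and biliary transcription factor, stood at 9.97, 5.77, 9.10 and 9.86 CPM in LKO 3, 4, 12 and 13, against 15.46, 16.91 and 40.33 CPM in female Fl/Fl 5, 7 and 9 and 22.33 CPM in the male Fl/Fl liver (log2 -1.48 ± 0.39, adjusted p = 0.137). Fl/Fl 9 was the highest of these livers. Nr2f2, an orphan nuclear receptor, was at 21.62 ± 5.80 CPM in LKO livers and 35.58 ± 2.01 CPM in female Fl/Fl livers, and at 31.71 CPM in the male one (log2 -0.72 ± 0.18, adjusted p = 0.0934). Nr5a2, a nuclear receptor of bile acid and cholesterol metabolism, was at 73.93 ± 4.51 CPM in LKO livers and 95.92 ± 10.89 CPM in female Fl/Fl livers (log2 -0.38 ± 0.10, adjusted p = 0.0922), and at 71.72 CPM in the male one, within the LKO range. Ces3b, a carboxylesterase, was at 284.9 ± 30.95 CPM in LKO livers and 360.4 ± 20.29 CPM in female Fl/Fl livers, and at 648.5 CPM in the male one (log2 -0.34 ± 0.10, adjusted p = 0.135).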
